A study of Mus musculus with 60 samples.

Results

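The replication-dependent histone genes that sit in clusters in the mouse genome were followed through the adipogenic course of C3H10T1/2 cells, a mouse mesenchymal line that can be turned into fat cells in culture. Members were the rows of both deposited gene tables whose symbol begins with Hist1h, Hist2h, Hist3h or Hist4h, which gave 69 of 24982 genes in each table. They comprised 6 linker histone H1, 19 H2A, 19 H2B, 12 H3 and 13 H4 genes. The rule used names alone and no measured value. A count of members that passed a filter on low values is smaller: 60 of 69 had at least 1 FPKM in 3 or more of the 24 libraries of the first table, and 61 of 69 in the 36 libraries of the second. FPKM is the number of fragments per kilobase of transcript, scaled to the fragments mapped in the library. At the edge of that filter, the third-highest value was 1.26 FPKM for Hist2h2ac and 0.79 FPKM for Hist1h2bm in the first table, and 1.03 FPKM for Hist1h2af and 0.98 FPKM for Hist1h2bl in the second. Only 2 members, Hist1h2aa and Hist1h2ba, were listed at 0 in every one of the 60 libraries. Both are known as testis histones.

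Each of 20 groups held 3 libraries, taken at day 0, 2, 4 or 6 from 5 populations of these cells. The first table held Tet1-KO cells, labelled as a knockout of Tet1, an enzyme that oxidises methylated cytosine in DNA, and WT cells. The second held populations labelled 23-Tet1, 23-CATA and 23-NC, and the labels do not spell these names out. Every group was grown in medium with 10% serum to 1 day past confluence, when day 0 began. For the next 48 h the medium held insulin at 10 µg/ml, T3 at 1 nM, dexamethasone and rosiglitazone at 1 µM each, and the phosphodiesterase inhibitor 3-isobutyl-1-methylxanthine at 0.5 mM. After that it held insulin at 5 µg/ml. The labels do not say whether Tet1-KO cells are 1 clone, nor do they name separate cultures for the replicates, and the p-values reflect library-to-library spread that may be technical. The 2 tables were never mixed in a test.

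The proteins made by these genes package DNA: H2A, H2B, H3 and H4 form the nucleosome core, and H1 binds the linker DNA between cores. In dividing cells their mRNAs accumulate in S phase and end not in a poly(A) tail but in a conserved stem-loop, which is bound by stem-loop binding protein (Slbp) and cut with the help of the U7 snRNP. Some of the genes can also yield longer, polyadenylated transcripts from a signal downstream of the stem-loop, and such transcripts are known from differentiated cells of several types. The libraries were made with a kit that selects polyadenylated RNA, so the values describe histone RNA that passed this selection and not the total histone mRNA of the cells.

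The 3′ ends differ between members in a way the naming rule did not use. The stem-loop, as annotated transcripts of GENCODE M21 on GRCm38 (mm10) carry it, is printed for the most abundant members of the types and for Hist1h3c and Hist1h4a, whose changes are described later. Each line reads 5′ to 3′ on the gene's own strand with 5 flanking bases on each side, and capitals mark the 16 bases of the stem and loop.
Hist1h1c: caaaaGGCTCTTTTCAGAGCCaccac
Hist2h2aa1: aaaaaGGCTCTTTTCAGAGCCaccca
Hist3h2a: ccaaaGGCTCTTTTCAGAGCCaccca
Hist1h2bg: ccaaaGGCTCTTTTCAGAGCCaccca
Hist2h3c1: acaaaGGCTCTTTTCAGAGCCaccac
Hist1h3c: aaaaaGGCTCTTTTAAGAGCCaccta
Hist1h4h: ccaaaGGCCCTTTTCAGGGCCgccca
Hist1h4i: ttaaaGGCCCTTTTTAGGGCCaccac
Hist1h4a: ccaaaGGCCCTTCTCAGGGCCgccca

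The core was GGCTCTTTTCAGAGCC in 26 members, among them Hist1h1c, Hist2h2aa1 and Hist1h2bg, and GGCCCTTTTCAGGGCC in 7 members, all of which were H4 genes. Hist1h3c carried the core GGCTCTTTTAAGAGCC, shared by 6 members. Of the 69 members, 23 had an annotated transcript that runs at least 100 bases past the stem-loop, 23 ended nearer to it and 23 had no match in the annotated sequence. The stem-loop matched 0.148% of 58797 protein-coding transcripts. The polyadenylation signal AATAAA or ATTAAA was searched as letters in the last 50 bases of the annotated transcripts. It was found in any transcript of 17 of the 69 members, and in 50.2% of all protein-coding transcripts. The first value counts genes and the second transcripts, so they are not on the same scale. These are letter matches, not mapped 3′ ends, and an annotated signal means such a match throughout. Hist1h1c (chr13:23738808-23740367, plus strand) ran 840 bases past its stem-loop and had such a signal, as did Hist3h2a (chr11:58954685-58956830, plus strand) with 1643 bases, Hist2h3c1 (chr3:96246685-96248509, plus strand) with 1167 and Hist1h4i (chr13:22040636-22041362, minus strand) with 330. Hist1h4h (chr13:23531050-23531519, plus strand) ended 46 bases past its stem-loop and had a signal, and Hist2h2aa1 (chr3:96245497-96246082, plus strand) ended 35 bases past it without one. Hist1h3c (chr13:23744973-23745602, minus strand) ended 74 bases past it, also without one.

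Promoters were matched in RefSeq (GRCm38.p6) for 61 of 69 members. Over the 250 bases before the start, TATAAA was present on either strand in 47.5% of the 61, against 12.4% of 32851 promoters, and CCAAT in 82.0%, against 33.8%. The octamer ATTTGCAT, known from H2B promoters, was present in 21.3%, against 1.6%. CCAAT was found in every H1, H2A and H2B promoter matched and in 3 of 12 H4 promoters, and the octamer in 7 of 17 H2A and 6 of 16 H2B promoters and in none of the others. These are letter matches in a window, not sites of binding. Windows of neighbouring genes on opposite strands can overlap, so that the same match counts for both genes, as for Hist1h2ae and Hist1h2bg. The 150 bases before the RefSeq start, which can differ from the GENCODE start, are shown for 4 members with contrasting courses, 5′ to 3′ on the gene's strand, with matches to the 3 motifs on either strand in capitals: Hist1h4h (chr13:23530894-23531043, plus strand), Hist1h2bg (chr13:23571250-23571399, plus strand), Hist2h2aa1 (chr3:96245347-96245496, plus strand) and Hist1h3c (chr13:23745522-23745671, minus strand).
Hist1h4h: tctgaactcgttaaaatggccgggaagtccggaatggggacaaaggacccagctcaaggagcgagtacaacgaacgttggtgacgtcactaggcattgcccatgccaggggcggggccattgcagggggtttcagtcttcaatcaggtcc
Hist1h2bg: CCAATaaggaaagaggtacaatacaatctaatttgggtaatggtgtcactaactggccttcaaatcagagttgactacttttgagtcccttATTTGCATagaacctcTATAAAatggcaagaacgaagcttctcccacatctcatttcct
Hist2h2aa1: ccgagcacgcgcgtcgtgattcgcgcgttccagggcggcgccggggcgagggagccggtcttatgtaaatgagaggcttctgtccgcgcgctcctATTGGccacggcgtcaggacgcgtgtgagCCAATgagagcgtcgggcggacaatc
Hist1h3c: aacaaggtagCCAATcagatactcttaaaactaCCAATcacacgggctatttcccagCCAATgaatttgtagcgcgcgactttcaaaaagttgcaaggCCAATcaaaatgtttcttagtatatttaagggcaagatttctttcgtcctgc

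Tet1 itself was at 0.26, 0.24 and 0.25 FPKM in Tet1-KO cells and at 0.88, 1.12 and 1.03 FPKM in WT cells at day 0. From day 2 on it was at or under 0.06 FPKM in Tet1-KO and at or under 0.11 FPKM in WT cells, so that the labels could be checked by this gene at day 0 only. Over all days it lay between 4.04 and 7.46 FPKM in 23-Tet1 cells and between 5.75 and 21.6 FPKM in 23-CATA cells, against at most 0.12 FPKM in 23-NC cells. Depth, read from the step size of low FPKM values, could be estimated for 59 libraries, which held about 12.3 to 19.9 M fragments with a median of 15.5 M. Tet1-KO day 6 replicate 2 gave no clear step and stood apart: 30 members were above 0 there, against 44 to 62 in the other 59 libraries, and Hist1h4h alone made up 80.8% of its histone FPKM, against 0.383% to 30.1% elsewhere. Many first-table results that rest on this library are therefore given with and without it. Counts of the other gene lists and some single genes are given only with it. Adipocyte markers (8 of 8 measured) and mesenchymal markers (8 of 8) passed the filter in both tables, and 1 of 5 haematopoietic markers did. That gene, Cd68, known from macrophages, had a mean of 6.96 FPKM in Tet1-KO and 41.5 FPKM in WT cells at day 6, against 1.70 FPKM in Tet1-KO and 1.54 FPKM in WT cells at day 0. At day 6 it had 77.01 FPKM in 23-Tet1, 80.1 FPKM in 23-CATA and 128 FPKM in 23-NC cells, above the day 0 libraries of each. The other 4, among them Ptprc and Adgre1, stayed under 1 FPKM in every library. The part of other cell types in the histone values was not tested.

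The polyadenylated histone signal was carried by few members. Hist2h2aa1, Hist1h2bc, Hist1h1c, Hist1h4h and Hist1h4i, the 5 most abundant over the libraries of both tables, held a median of 81.8% of the members' summed FPKM over the libraries of the first table (72.4% to 95.7%) and 70.8% over those of the second (36.6% to 82.6%). In the second table Hist3h2a, at 45.4 FPKM on average, and Hist2h3c1, at 41.0 FPKM, stood above Hist1h4h, at 31.6 FPKM, and the 5 most abundant members of that table held a median of 73.5% (43.8% to 83.2%). The median member with an annotated polyadenylation signal averaged 11.2 FPKM and the median member without one 3.15 FPKM in the first table. In the second table the corresponding medians were 7.11 and 2.55 FPKM. Hist2h2aa1 and Hist1h2bc, the most abundant members of the first table at 519 and 511 FPKM, lack an annotated signal. Of all members, 20 had neither a stem-loop match nor a signal, and whether their annotated 3′ ends are complete was not tested.

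The summed level of the 69 members, in FPKM as mean ± SD of 3 libraries, was 1978 ± 189 at day 0, 1483 ± 57.9 at day 2, 3798 ± 684 at day 4 and 2586 ± 927 at day 6 in Tet1-KO cells. The Tet1-KO libraries of day 6 had 3455, 2692 and 1609.5 FPKM in replicates 1, 2 and 3. In WT cells the sum was 1347 ± 36.6 at day 0, 1245 ± 38.2 at day 2, 2559.5 ± 54.1 at day 4 and 1864 ± 105 at day 6. As a share of all FPKM of a library, the members in WT cells held 0.208% to 0.222% at day 0 and 0.121% to 0.134% at day 2. At day 6 the share was 0.217% to 0.259% and overlapped day 0, so the course depends on the measure. Both populations had their highest mean at day 4, when every Tet1-KO and WT library lay above every library of its own day 0. In 23-Tet1 cells the sum was 520.1 ± 17.3 at day 0, 880.4 ± 42.7 at day 2, 1335 ± 71.5 at day 4 and 1417 ± 53.8 at day 6. The 23-CATA libraries averaged 589 ± 5.98 at day 0, 975 ± 61.8 at day 2, 1591 ± 159 at day 4 and 1408 ± 40.8 at day 6. The 23-NC libraries averaged 886 ± 76.8 at day 0, 835 ± 47.1 at day 2, 1904 ± 175 at day 4 and 1469 ± 101 at day 6. The 3 populations of the second table all had their lowest sum at day 0 or day 2. The sum started lower in 23-Tet1 and 23-CATA cells than in 23-NC cells, without overlap, and at day 6 the libraries of 23-Tet1 and 23-NC cells overlapped. In bulk RNA, fewer cells of a type and less RNA per cell cannot be told apart.

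**Figure D1:**
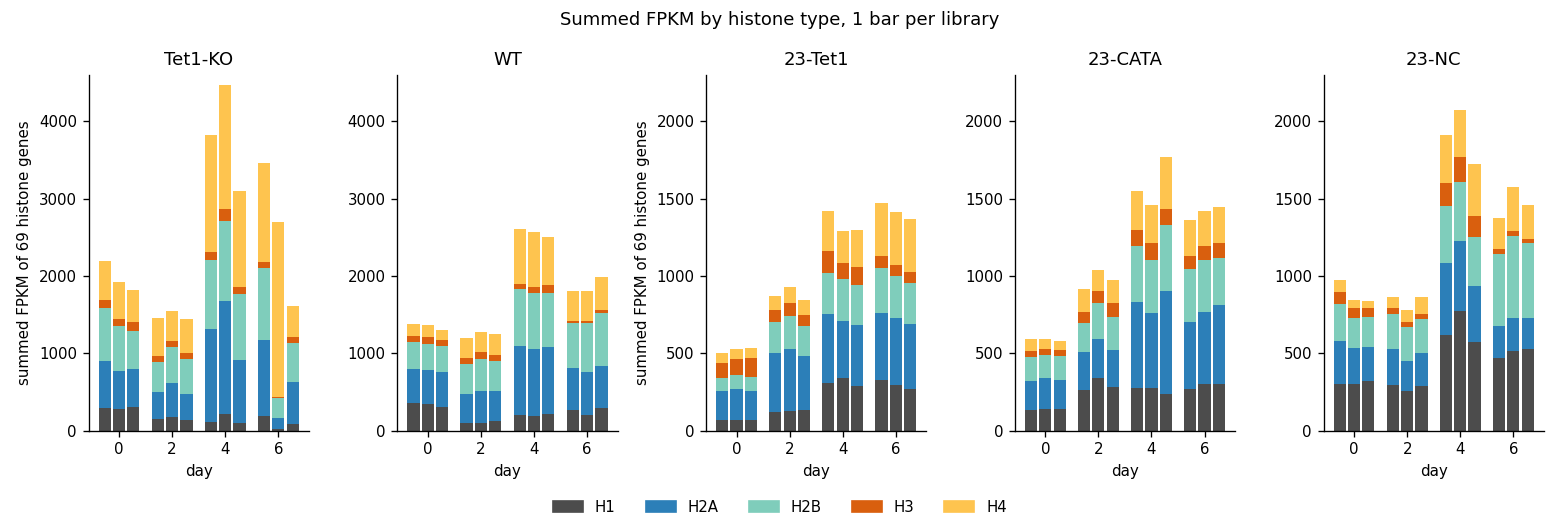
Summed FPKM of the histone genes, stacked by type (H1, H2A, H2B, H3, H4), with 1 bar for each library, grouped by population and day. The panels of the 2 tables have separate scales, and the bar of Tet1-KO day 6 replicate 2 consists mostly of H4.

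The H1 signal came almost wholly from Hist1h1c, a linker histone gene expressed in most tissues. Over days 0, 2, 4 and 6 the summed H1 level was 291 ± 11.3, 158 ± 21.6, 143 ± 67.5 and 99.6 ± 79.2 FPKM in Tet1-KO cells and 335 ± 23.2, 109 ± 19.03, 202 ± 15.8 and 254 ± 47.2 FPKM in WT cells (mean ± SD). It was 69.1 ± 0.711, 127 ± 4.14, 312 ± 26.9 and 297 ± 29.5 FPKM in 23-Tet1 cells, 138 ± 6.04, 295 ± 40.8, 262 ± 24.5 and 291 ± 18.3 FPKM in 23-CATA cells and 306 ± 12.9, 281 ± 22.6, 656 ± 105 and 505 ± 30.7 FPKM in 23-NC cells. Without Tet1-KO day 6 replicate 2, the H1 mean of that group was 136 FPKM. The mean H1 level was lower at every later day than at day 0 in both populations of the first table. In the 3 of the second it was higher at days 4 and 6 than at day 0. Hist1h1c alone had 277, 269.7 and 289.9 on day 0, 142, 168 and 127 on day 2, 103, 208 and 79.7 on day 4, and 165, 15.5 and 81.7 on day 6 (FPKM) in Tet1-KO cells. In WT cells it had 346, 328 and 302 on day 0, 85.6, 96.4 and 122 on day 2, 201, 177 and 206 on day 4, and 261, 195 and 286 on day 6. In FPKM as deposited, all libraries of both populations after day 0 lay below those of their own day 0. The median log2 change of all genes tested in WT cells was −0.52 at day 4 and −0.29 at day 6. The order of the WT libraries on these days can therefore depend on the scaling. At day 4, 0 of 4 H1 members tested were called in WT cells. In 23-Tet1 cells Hist1h1c had 64.3, 65.9 and 64.3 on day 0, 119, 122 and 127 on day 2, 295, 318 and 266 on day 4, and 307, 279 and 248 on day 6. In 23-CATA cells it had 128, 138 and 136 on day 0, 249, 329 and 267 on day 2, 266, 266 and 225 on day 4, and 261, 291 and 293 on day 6. In 23-NC cells it had 294, 293 and 315 on day 0, 290.4, 249 and 284 on day 2, 583, 733 and 541 on day 4, and 455, 505 and 516 on day 6. In these 3 populations the direction in FPKM was the opposite one. At days 4 and 6 all 9 libraries of each of these days lay above the day 0 libraries of their population. The 23-NC cells were the highest at every day but day 2, when 23-CATA overlapped them.

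Tests used limma on log2(FPKM + 1), and changes are given as log2 differences ± SE less the median change of all genes tested, while a call (adjusted p under 0.05) rests on the fitted difference itself. Hist1h1c fell at day 2 in WT cells by 1.29 ± 0.51 (adjusted p = 0.00735) and at day 6 in Tet1-KO cells by 1.82 ± 0.51 (adjusted p = 0.00248). At day 6 it was lower in Tet1-KO than in WT cells, at −1.81 ± 0.51 (adjusted p = 0.00384). Without Tet1-KO day 6 replicate 2, the lowest library, the fitted change to day 6 in Tet1-KO cells was −1.26 (adjusted p = 0.00382), against −2.20 with it, and the fitted difference between Tet1-KO and WT cells was −1.07 (adjusted p = 0.00923), against −2.01. Against its day 0, Hist1h1c rose at day 4 by 2.23 ± 0.10 (adjusted p = 8.82e-18) in 23-Tet1, 1.24 ± 0.10 (adjusted p = 2.77e-09) in 23-CATA and 1.12 ± 0.10 (adjusted p = 2.86e-10) in 23-NC cells. At day 0 it was lower than in 23-NC cells by 2.29 ± 0.10 (adjusted p = 2.65e-17) in 23-Tet1 cells and by 1.27 ± 0.10 (adjusted p = 1e-10) in 23-CATA cells.

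Hist1h1e, another somatic linker histone gene, was far less abundant. In Tet1-KO cells it had 9.49, 6.62 and 9.30 on day 0, 9.13, 11.6 and 5.86 on day 2, 11.4, 8.69 and 11.3 on day 4, and 17.1, 9.24 and 4.68 on day 6 (FPKM). WT cells had 5.16, 4.82 and 2.63 on day 0, 3.61, 4.98 and 5.08 on day 2, 3.29, 4.80 and 4.85 on day 4, and 6.42, 5.62 and 3.52 on day 6. The Tet1-KO libraries lay above the WT libraries at days 0, 2 and 4 and overlapped them at day 6. Only the day 4 difference passed the test, at 1.02 ± 0.33 (adjusted p = 0.0263). The day 4 call missed the threshold in turn without WT day 4 replicates 1, 2 and 3 and Tet1-KO day 4 replicates 1 and 3 (adjusted p = 0.0547 to 0.116). In 23-Tet1 cells Hist1h1e had 1.58, 1.16 and 2.96 on day 0, 3.13, 2.25 and 2.11 on day 2, 6.19, 7.98 and 6.60 on day 4, and 10.1, 7.54 and 13.3 on day 6. 23-CATA cells had 1.17, 1.60 and 1.25 on day 0, 5.33, 3.59 and 5.35 on day 2, 5.51, 7.18 and 6.21 on day 4, and 2.89, 5.37 and 5.45 on day 6. 23-NC cells had 1.57, 3.47 and 1.95 on day 0, 3.78, 3.15 and 3.54 on day 2, 10.1, 12.5 and 9.85 on day 4, and 9.55, 6.17 and 7.30 on day 6. In all 3 populations the libraries of days 4 and 6 lay above those of day 0. The rise at day 4 was 1.57 ± 0.22 (adjusted p = 6.25e-07) in 23-Tet1, 1.98 ± 0.22 (adjusted p = 8.34e-08) in 23-CATA and 1.96 ± 0.22 (adjusted p = 1.07e-08) in 23-NC cells. The annotated Hist1h2be spans Hist1h1e on the same strand, and reads of these 2 genes may be uncertain for that reason.

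The H2A sum was 528 ± 65.5, 369.8 ± 55.1, 1159 ± 319 and 552 ± 429 FPKM over days 0, 2, 4 and 6 in Tet1-KO cells and 442 ± 2.11, 392 ± 14.3, 873 ± 12.6 and 544 ± 5.41 FPKM in WT cells (mean ± SD). It was 190.3 ± 7.34, 378 ± 26.99, 403 ± 35.5 and 431 ± 7.55 FPKM in 23-Tet1 cells, 193 ± 7.41, 244 ± 5.34, 569.7 ± 91.6 and 469 ± 37.2 FPKM in 23-CATA cells and 245 ± 32.2, 214 ± 17.6, 426 ± 53.6 and 205 ± 5.02 FPKM in 23-NC cells. Without Tet1-KO day 6 replicate 2, the H2A mean of that group was 763 FPKM. The H2A mean was highest at day 4 in all populations but 23-Tet1, where it was highest at day 6. Its main member was Hist2h2aa1, a core histone H2A gene on chromosome 3 whose reads the counting could split with a near-identical neighbour, Hist2h2aa2, and with 3 overlapping gene models. Hist2h2aa1 had 457, 369 and 354 on day 0, 256, 369.7 and 246 on day 2, 1119, 1382 and 744 on day 4, and 888, 115 and 429 on day 6 (FPKM) in Tet1-KO cells. In WT cells it had 314, 296 and 299 on day 0, 303, 333 and 309.8 on day 2, 823, 815 and 807 on day 4, and 459, 486 and 473 on day 6. Day 4 libraries lay above the day 0 libraries in both populations, and at day 6 this held for WT but not for Tet1-KO cells, where replicate 2 had the lowest value. In 23-Tet1 cells it had 68.3, 77.04 and 59.6 on day 0, 289, 323 and 274 on day 2, 346, 283 and 307 on day 4, and 325, 327 and 304 on day 6. In 23-CATA cells it had 113, 116 and 103 on day 0, 174, 175 and 165 on day 2, 476, 417 and 586 on day 4, and 355, 387 and 425 on day 6. In 23-NC cells it had 172, 149 and 135 on day 0, 145, 117 and 131 on day 2, 328, 322 and 252 on day 4, and 109.9, 125 and 111 on day 6. In 23-Tet1 and 23-CATA cells every later library lay above day 0, whereas in 23-NC cells the day 4 libraries lay above day 0 and those of day 6 below it.

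Hist2h2aa1 rose at day 4 by 1.71 ± 0.43 (adjusted p = 0.0115) in Tet1-KO and 1.94 ± 0.43 (adjusted p = 0.007) in WT cells. The Tet1-KO call missed the threshold without Tet1-KO day 4 replicate 2 (adjusted p = 0.0562). In the second table the rise at day 4 was 2.25 ± 0.12 (adjusted p = 2.11e-16) in 23-Tet1, 2.47 ± 0.12 (adjusted p = 2.47e-16) in 23-CATA and 1.07 ± 0.12 (adjusted p = 1.24e-08) in 23-NC cells. At day 6 it was −0.31 ± 0.12 (adjusted p = 0.00413) in 23-NC cells, a fall. Against 23-NC cells, Hist2h2aa1 was lower in 23-Tet1 cells at day 0, at −1.24 ± 0.12 (adjusted p = 1.23e-09), and higher at day 6, at 1.41 ± 0.12 (adjusted p = 5.87e-12). The change of that difference between the days was 2.64 ± 0.17 (adjusted p = 4.71e-14). The 23-CATA cells differed from 23-NC cells by −0.56 ± 0.12 (adjusted p = 0.00256) at day 0 and 1.73 ± 0.12 (adjusted p = 5.63e-14) at day 6, and the change of that difference was 2.28 ± 0.17 (adjusted p = 2.43e-12).

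Hist3h2a, an H2A gene of the small cluster on chromosome 11, went the other way. Tet1-KO cells had 74.1, 56.9 and 69.2 on day 0, 50.1, 24.4 and 53.3 on day 2, 30.7, 18.7 and 32.2 on day 4, and 37.3, 0 and 30.8 on day 6 (FPKM). WT cells had 72.6, 81.7 and 87.04 on day 0, 14.4, 13.95 and 22.96 on day 2, 20.02, 13.7 and 19.1 on day 4, and 43.5, 24.8 and 28.7 on day 6. All later libraries lay below those of day 0 in both populations. The day 2 change in WT cells was −1.81 ± 0.82 (adjusted p = 0.0257). The day 2 call missed the threshold with a pseudocount of 0.1 FPKM and after median-ratio scaling (adjusted p = 0.0683 to 0.145) and in turn without WT day 0 replicates 2 and 3 and WT day 2 replicates 1 and 2 (adjusted p = 0.0564 to 0.0681). In Tet1-KO cells the change at day 6 was −2.27 ± 0.82 (adjusted p = 0.0147) with replicate 2, which is listed at 0, and the fitted change was −0.95 (adjusted p = 0.0209) without it, against −2.66 with it. In 23-Tet1 cells Hist3h2a had 35.97, 40.2 and 43.02 on day 0, 57.7, 51.5 and 45.6 on day 2, 47.3, 43.4 and 42.7 on day 4, and 40.4, 40.2 and 38.5 on day 6. 23-CATA cells had 54.3, 55.1 and 53.95 on day 0, 35.3, 39.7 and 34.2 on day 2, 31.03, 27.2 and 36.1 on day 4, and 38.6, 42.1 and 42.3 on day 6. 23-NC cells had 76.7, 66.5 and 59.7 on day 0, 39.3, 44.8 and 53.3 on day 2, 56.5, 52.1 and 51.3 on day 4, and 37.6, 42.02 and 39.9 on day 6. Later libraries lay below day 0 in 23-CATA and 23-NC cells, while in 23-Tet1 cells, which began lower, they lay above it at day 2 and overlapped it afterwards. At day 0 the difference from 23-NC cells was −0.85 ± 0.10 (adjusted p = 2.01e-07) in 23-Tet1 and −0.41 ± 0.10 (adjusted p = 0.0162) in 23-CATA cells. The 23-CATA call missed the threshold without 23-NC day 0 replicate 1 (adjusted p = 0.106). Hist3h2a overlaps Trim17 on the same strand in the annotation.

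The H2B sum over days 0, 2, 4 and 6 was 588 ± 94.2, 438 ± 36.9, 922 ± 94.4 and 563 ± 337 FPKM in Tet1-KO cells and 340.4 ± 2.86, 397 ± 16.02, 717 ± 20.3 and 637 ± 59.6 FPKM in WT cells (mean ± SD). It was 89.4 ± 4.47, 201 ± 7.16, 265 ± 5.07 and 276 ± 14.2 FPKM in 23-Tet1 cells, 151 ± 3.97, 212 ± 20.7, 375 ± 44.7 and 328 ± 20.8 FPKM in 23-CATA cells and 209 ± 27.3, 219.8 ± 7.50, 356 ± 39.1 and 496 ± 34.04 FPKM in 23-NC cells. Without Tet1-KO day 6 replicate 2, the H2B mean of that group was 714 FPKM. The H2B mean was highest at day 4 in Tet1-KO, WT and 23-CATA cells and at day 6 in 23-Tet1 and 23-NC cells. Hist1h2bc, a core histone H2B gene whose annotated transcript spans an intron and carries no stem-loop match, was the main member. It had 597, 534 and 394 on day 0, 342, 415 and 399 on day 2, 839.6, 929 and 794 on day 4, and 872, 243 and 456 on day 6 (FPKM) in Tet1-KO cells. In WT cells it had 269, 249.6 and 251 on day 0, 328, 353 and 339.6 on day 2, 672, 657 and 622 on day 4, and 503, 580.4 and 618 on day 6. At day 0 the Tet1-KO libraries lay above the WT libraries, and in WT cells each later day lay above day 0, whereas in Tet1-KO cells only day 4 did. 23-Tet1 cells had 51.3, 53.98 and 52.6 on day 0, 142, 149.8 and 148 on day 2, 184, 203 and 186 on day 4, and 204, 201 and 186 on day 6. In 23-CATA cells it had 116, 105 and 104 on day 0, 145, 175 and 160.0 on day 2, 286, 257 and 343 on day 4, and 251, 259 and 244 on day 6. In 23-NC cells it had 199, 156 and 152 on day 0, 169, 165 and 170.2 on day 2, 230.5, 237 and 202 on day 4, and 384, 455 and 397 on day 6. Days 4 and 6 lay above day 0 in all 3 populations, and the 23-Tet1 libraries of day 0 were the lowest of all.

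Hist1h2bc was higher in Tet1-KO than in WT cells at day 0, at 1.05 ± 0.28 (adjusted p = 0.0259). The day 0 call missed the threshold in turn without WT day 0 replicates 1, 2 and 3 and Tet1-KO day 0 replicates 1 and 2 (adjusted p = 0.0546 to 0.119). It rose at day 4 by 1.06 ± 0.28 (adjusted p = 0.0328) in Tet1-KO and by 1.85 ± 0.28 (adjusted p = 0.000369) in WT cells. The Tet1-KO call missed the threshold in turn without Tet1-KO day 0 replicates 2 and 3 and Tet1-KO day 4 replicates 1 and 2 (adjusted p = 0.0524 to 0.146). In 23-Tet1 cells Hist1h2bc was lower than in 23-NC cells at day 0, at −1.75 ± 0.09 (adjusted p = 2.34e-15), and at day 6, at −1.11 ± 0.09 (adjusted p = 3.98e-11). Relative to 23-NC, 23-CATA cells were lower at day 0, at −0.74 ± 0.09 (adjusted p = 2.06e-06), higher at day 4, at 0.48 ± 0.09 (adjusted p = 0.000403), and lower at day 6, at −0.72 ± 0.09 (adjusted p = 6.95e-08).

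Hist1h2bg, an H2B gene and 1 of 9 members whose promoter held all 3 motifs searched, had 12.3, 6.02 and 23.3 on day 0, 7.58, 9.59 and 6.54 on day 2, 9.55, 13.1 and 3.80 on day 4, and 12.3, 0 and 3.68 on day 6 (FPKM) in Tet1-KO cells. WT cells had 33.8, 40.6 and 40.9 on day 0, 4.14, 7.76 and 8.42 on day 2, 6.14, 8.42 and 10.1 on day 4, and 12.1, 7.39 and 8.01 on day 6. WT libraries fell below day 0 at every later day, by 1.99 ± 0.62 (adjusted p = 0.00251) at day 2, while in Tet1-KO cells, lower at day 0 than WT without overlap, later libraries overlapped day 0. That difference at day 0 was −1.49 ± 0.62 (adjusted p = 0.0868) and did not pass the test. In 23-Tet1 cells it had 8.42, 8.96 and 4.58 on day 0, 30.6, 35.6 and 22.4 on day 2, 31.1, 22.5 and 36.4 on day 4, and 30.7, 27.6 and 28.6 on day 6. 23-CATA cells had 17.98, 18.8 and 31.3 on day 0, 10.5, 13.7 and 9.63 on day 2, 23.2, 25 and 29.7 on day 4, and 31.6, 25.2 and 21.9 on day 6. 23-NC cells had 13.1, 15.1 and 14.2 on day 0, 21.03, 22.7 and 15.5 on day 2, 57.7, 50.7 and 38.8 on day 4, and 24.5, 15.5 and 29.8 on day 6. Later libraries lay above day 0 at every day in 23-Tet1 and 23-NC cells, whereas in 23-CATA cells those of day 2 lay below it. The day 2 change was 1.94 ± 0.24 (adjusted p = 3.71e-08) in 23-Tet1, −0.76 ± 0.24 (adjusted p = 0.000995) in 23-CATA and 0.50 ± 0.24 (adjusted p = 0.111) in 23-NC cells, and the last did not pass.

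H3 had the lowest polyadenylated sum of the core types in both Tet1-KO and WT cells, at 103 ± 7.76, 76.1 ± 4.19, 121 ± 35.1 and 61.5 ± 38.1 FPKM over days 0, 2, 4 and 6 in Tet1-KO and 82.7 ± 3.87, 84.2 ± 10.2, 89.04 ± 21.2 and 32.02 ± 6.44 FPKM in WT cells (mean ± SD). It was 109 ± 13.8, 78.7 ± 7.56, 121 ± 17.7 and 68.9 ± 2.61 FPKM in 23-Tet1 cells, 38.3 ± 0.820, 80.7 ± 8.45, 107 ± 3.95 and 89.1 ± 6.73 FPKM in 23-CATA cells and 64.8 ± 7.66, 35.2 ± 2.77, 148 ± 10.6 and 30.1 ± 4.35 FPKM in 23-NC cells. Its mean was lowest at day 6 in WT, 23-Tet1 and 23-NC cells and at day 0 in 23-CATA cells. In Tet1-KO cells it was lowest at day 6 too with all libraries, but at day 2 without day 6 replicate 2, when the day 6 mean was 83.4 FPKM. Hist2h3c1, a core histone H3 gene next to Hist2h2aa1 on chromosome 3, had 37.5, 13.9 and 42.2 on day 0, 35.02, 48.8 and 32.3 on day 2, 44.3, 106 and 29.4 on day 4, and 32.8, 0 and 3.16 on day 6 (FPKM) in Tet1-KO cells. In WT cells it had 49.5, 49.6 and 39.4 on day 0, 14.99, 29.1 and 11.02 on day 2, 31.5, 41.7 and 61.5 on day 4, and 16.4, 7.32 and 9.99 on day 6. WT libraries of days 2 and 6 lay below day 0, while the Tet1-KO libraries of days 2 and 4 overlapped their day 0. 23-Tet1 cells had 12.4, 14.5 and 16.9 on day 0, 65.1, 43.3 and 59.03 on day 2, 93.1, 62.97 and 77.6 on day 4, and 30.5, 17.98 and 26.7 on day 6. In 23-CATA cells it had 21.7, 18.9 and 21.4 on day 0, 40.2, 45.9 and 36.2 on day 2, 48.1, 65.7 and 67.1 on day 4, and 46.8, 48.3 and 52.5 on day 6. In 23-NC cells it had 51.7, 49.9 and 22.1 on day 0, 22.1, 16.3 and 23.1 on day 2, 69.8, 89.99 and 72.5 on day 4, and 7.54, 9.33 and 7.92 on day 6. It went to the lowest values of the second table at day 6 in 23-NC cells, whereas in 23-Tet1 and 23-CATA cells every later library lay above day 0.

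In 23-NC cells Hist2h3c1 was 1.07 ± 0.22 (adjusted p = 0.000295) at day 4 and −2.03 ± 0.22 (adjusted p = 1.47e-09) at day 6, both against day 0. Without 23-NC day 0 replicate 3, the lowest of its group, the fitted change at day 4 was 0.59, against 0.98 with it. At day 6 it was higher than in 23-NC cells by 1.42 ± 0.22 (adjusted p = 1.56e-06) in 23-Tet1 and 2.43 ± 0.22 (adjusted p = 6.19e-11) in 23-CATA cells, and at day 0 lower by 1.45 ± 0.22 (adjusted p = 5.87e-06) in 23-Tet1 and 0.98 ± 0.22 (adjusted p = 0.00217) in 23-CATA cells. The change of the difference between the days was 2.86 ± 0.32 (adjusted p = 8.54e-09) in 23-Tet1 and 3.41 ± 0.32 (adjusted p = 3.54e-10) in 23-CATA cells. Reads could be split between Hist2h3c1 and the H3 genes Hist2h3b and Hist2h3c2 of the same cluster, whose sequences were not compared. Hist2h3c2 was above 0 in 19 of 60 libraries.

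Hist1h3d, an H3 gene of the large cluster on chromosome 13, had 17.2, 11.5 and 18.6 on day 0, 12.5, 9.28 and 14.3 on day 2, 15.2, 22.6 and 16.8 on day 4, and 14.5, 0 and 6.18 on day 6 (FPKM) in Tet1-KO cells. WT cells had 8.21, 6.92 and 10.2 on day 0, 7.34, 11.7 and 11 on day 2, 11.97, 14.9 and 19.1 on day 4, and 6.95, 6.86 and 13.6 on day 6. The Tet1-KO libraries lay above WT at day 0, but that difference, 0.91 ± 0.59 (adjusted p = 0.371), did not pass the test. In 23-Tet1 cells it had 4.49, 6.46 and 7.55 on day 0, 2.86, 4.54 and 4.25 on day 2, 16.6, 13.6 and 10.8 on day 4, and 11.6, 12.2 and 15.7 on day 6. 23-CATA cells had 4.05, 6.15 and 5.42 on day 0, 6.09, 8.39 and 14.9 on day 2, 10.2, 7.41 and 6.88 on day 4, and 8.89, 9.65 and 10.8 on day 6. 23-NC cells had 6.22, 4.54 and 5.68 on day 0, 3.81, 6.69 and 5.77 on day 2, 17.5, 27.3 and 27.1 on day 4, and 16.5, 13.9 and 12.8 on day 6. Days 4 and 6 lay above day 0 in all 3 populations, and the rise at day 4 was 1.11 ± 0.23 (adjusted p = 0.000253) in 23-Tet1, 0.90 ± 0.23 (adjusted p = 0.0291) in 23-CATA and 2.02 ± 0.23 (adjusted p = 1.76e-08) in 23-NC cells. At day 4 it was lower in 23-Tet1 and in 23-CATA cells than in 23-NC cells, without overlap, at −0.84 ± 0.23 (adjusted p = 0.00661) and −1.35 ± 0.23 (adjusted p = 3.72e-06). The call of the rise in 23-CATA cells missed the threshold in turn without 23-CATA day 0 replicate 1 and 23-CATA day 4 replicate 1 (adjusted p = 0.138 to 0.15).

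H4 showed the widest range. Its sum was 467 ± 39.4, 442 ± 45.7, 1453 ± 189 and 1309 ± 929.7 FPKM over days 0, 2, 4 and 6 in Tet1-KO cells and 146 ± 8.98, 263 ± 9.35, 679 ± 54.4 and 396 ± 21.4 FPKM in WT cells (mean ± SD). It was 62.8 ± 1.86, 96.6 ± 4.23, 235 ± 25.8 and 345 ± 2.55 FPKM in 23-Tet1 cells, 68.99 ± 8.55, 143 ± 8.08, 278 ± 48.8 and 231 ± 3.94 FPKM in 23-CATA cells and 61.6 ± 18.04, 85.5 ± 16.2, 318 ± 17.4 and 233 ± 44.2 FPKM in 23-NC cells. Without replicate 2 the day 6 mean in Tet1-KO cells was 836 FPKM. In all 5 populations the H4 mean was higher at days 4 and 6 than at day 0. Hist1h4h, a core histone H4 gene with a polyadenylation signal annotated at its end, had 127, 143 and 81.3 on day 0, 105, 137 and 114 on day 2, 1150.5, 1185 and 868 on day 4, and 802, 2176 and 185 on day 6 (FPKM) in Tet1-KO cells. In WT cells it had 16.5, 19.8 and 10.5 on day 0, 87.96, 83.6 and 78.4 on day 2, 401, 444 and 349 on day 4, and 173, 193 and 198 on day 6. Tet1-KO libraries lay above WT libraries at days 0, 2 and 4 and overlapped them at day 6, when the Tet1-KO replicates ranged from 185 to 2176 FPKM. 23-Tet1 cells had 3.59, 6.64 and 4.78 on day 0, 6.85, 11.5 and 10.4 on day 2, 39.1, 19.96 and 28.4 on day 4, and 63.9, 64.8 and 52.6 on day 6. In 23-CATA cells it had 8.06, 4.19 and 5.93 on day 0, 18.9, 20.6 and 22.98 on day 2, 92.1, 73.04 and 143 on day 4, and 70.4, 91.1 and 73.4 on day 6. In 23-NC cells it had 7.10, 4.33 and 3.21 on day 0, 5.63, 7.40 and 11.5 on day 2, 26.3, 25.1 and 37.6 on day 4, and 17.6, 31.5 and 24.9 on day 6. Days 4 and 6 lay above day 0 in all 5 populations, and 23-CATA libraries lay above 23-NC libraries at days 2, 4 and 6.

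Against its day 0, Hist1h4h rose at day 4 by 3.50 ± 0.51 (adjusted p = 6.72e-05) in Tet1-KO and 5.14 ± 0.51 (adjusted p = 2.65e-07) in WT cells. The corresponding rises were 2.39 ± 0.28 (adjusted p = 1.95e-08) in 23-Tet1, 4.20 ± 0.28 (adjusted p = 2.21e-13) in 23-CATA and 2.51 ± 0.28 (adjusted p = 7.9e-09) in 23-NC cells. It was higher in Tet1-KO than in WT cells at day 0, at 2.93 ± 0.51 (adjusted p = 0.00101), and at day 6, at 2.06 ± 0.51 (adjusted p = 0.00665). The differences of 0.33 ± 0.51 (adjusted p = 0.513) at day 2 and 1.33 ± 0.51 (adjusted p = 0.0662) at day 4 did not pass. Without Tet1-KO day 6 replicate 2 the fitted difference at day 6 was 1.03 (adjusted p = 0.0395), against 1.86 with it, and without replicate 3 it was 2.81. Against 23-NC cells it was higher at day 6 by 1.24 ± 0.28 (adjusted p = 0.000209) in 23-Tet1 and 1.64 ± 0.28 (adjusted p = 5.38e-06) in 23-CATA cells.

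Hist1h4i, another H4 gene with an annotated signal at its transcript's end, had 244, 253 and 228 on day 0, 270.4, 181 and 255 on day 2, 268, 223 and 259 on day 4, and 314, 26.9 and 107 on day 6 (FPKM) in Tet1-KO cells. WT cells had 96.4, 89.4 and 88.7 on day 0, 113, 109 and 139 on day 2, 234, 196 and 195 on day 4, and 142, 119 and 153 on day 6. The Tet1-KO libraries lay above the WT libraries at days 0 and 2, at 1.48 ± 0.48 (adjusted p = 0.0551) and 0.79 ± 0.48 (adjusted p = 0.16), neither of which passed. In 23-Tet1 cells it had 19.3, 14.3 and 13.9 on day 0, 46.1, 43.8 and 37.2 on day 2, 107, 91.8 and 84.9 on day 4, and 141, 123 and 164 on day 6. 23-CATA cells had 48.8, 31.03 and 27.3 on day 0, 58.7, 58.1 and 68.6 on day 2, 83.9, 87.95 and 104 on day 4, and 87.2, 82.5 and 75.6 on day 6. 23-NC cells had 55.2, 34.2 and 25.7 on day 0, 38.01, 38.7 and 56.6 on day 2, 148, 157 and 181 on day 4, and 119, 184 and 142 on day 6. In each of these populations days 4 and 6 lay above day 0, with a rise at day 6 of 3.21 ± 0.21 (adjusted p = 3.34e-14) in 23-Tet1, 1.43 ± 0.21 (adjusted p = 6.05e-06) in 23-CATA and 2.04 ± 0.21 (adjusted p = 1.24e-09) in 23-NC cells. At day 0 it was lower in 23-Tet1 than in 23-NC cells, at −1.27 ± 0.21 (adjusted p = 1.76e-05).

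**Figure D2:**
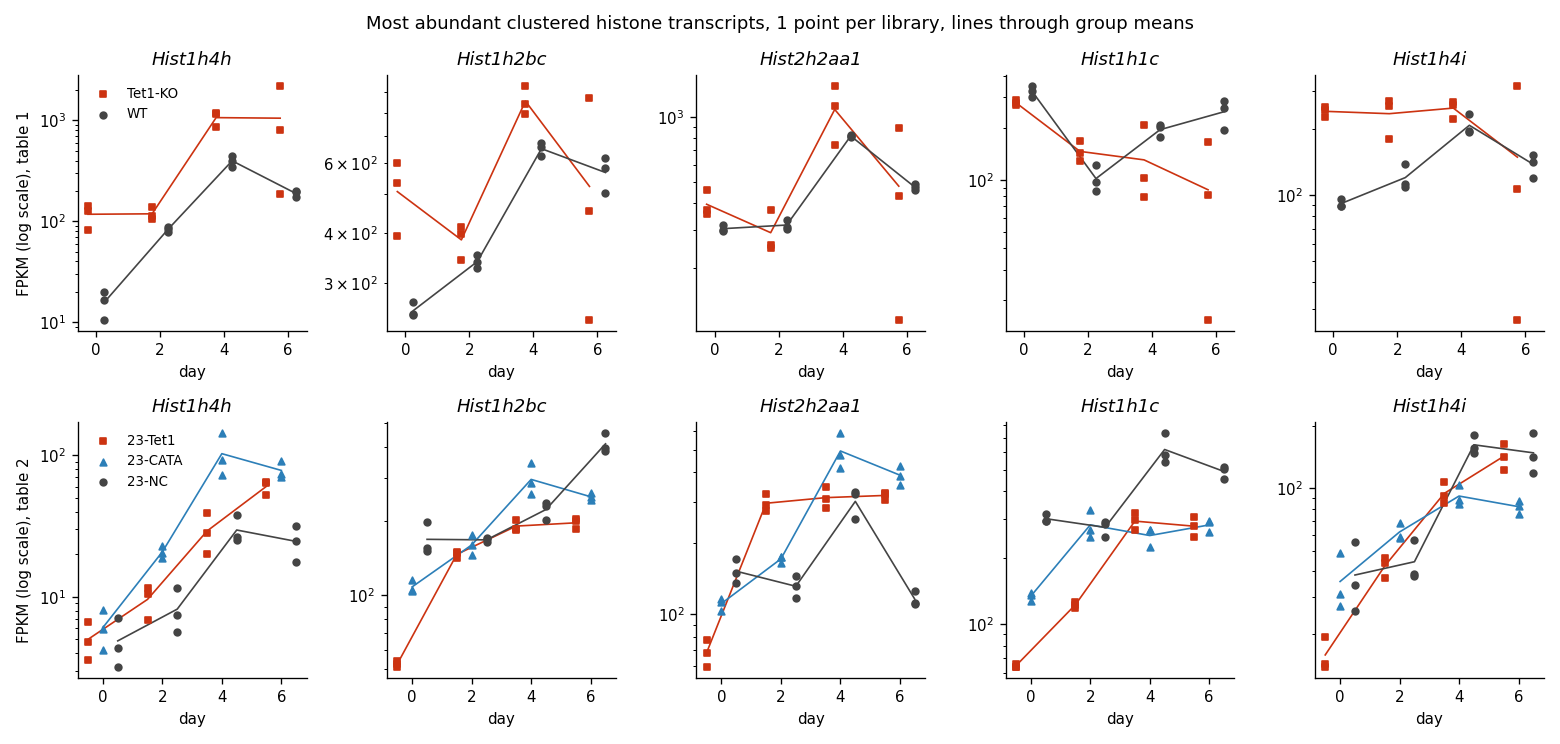
FPKM of Hist1h4h, Hist1h2bc, Hist2h2aa1, Hist1h1c and Hist1h4i in every library by day on a log axis, with the populations offset within each day and the 2 tables in separate panels. Hist1h4h of Tet1-KO cells at day 0 (81.3 to 143 FPKM) lies above that of WT cells (10.5 to 19.8 FPKM), and Hist1h1c of 23-Tet1 cells at day 0 (64.3 to 65.9 FPKM) below that of 23-NC cells (293 to 315 FPKM).

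Counted over the members that passed the filter, the course in WT cells was mixed, and the members' counts are read against those of all genes. Hist1h2bq and Hist1h2br, equal in 59 of 60 libraries, count as separate members throughout. At day 2 against day 0, 6 of the 60 tested members were higher and 7 lower, where 18.9% of all genes tested were higher and 43.2% lower and the median change of all genes was −0.39. At day 4, 10 of the 60 tested members were higher and 10 lower, where 18.1% of all genes tested were higher and 49.2% lower and the median change of all genes was −0.52. At day 6, 8 of the 60 tested members were higher and 17 lower, where 19.2% of all genes tested were higher and 37.4% lower and the median change of all genes was −0.29. After median-ratio scaling the counts were 12 higher and 3 lower for day 2, 15 higher and 7 lower for day 4, and 13 higher and 14 lower for day 6, so the balance of directions depends on the scaling. By type at day 6, 7 of 12 H3 members were lower and 0 higher, and of 14 H2B members 5 were higher and 4 lower. Of 17 H2A members 5 were lower and 0 higher, and of 13 H4 members 3 were higher and 0 lower. The lower H2A and higher H4 counts lay near the shares of all genes, 37.4% lower and 19.2% higher.

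The members called most strongly in WT cells at day 4, after Hist1h4h, were Hist1h2be with 8.59, 10.1 and 16.4 FPKM, against 1.70, 2.00 and 3.31 FPKM at day 0, a change of 2.43 ± 0.39 (adjusted p = 0.000271), and the H4 gene Hist1h4a. Hist1h4a had 11.5, 11.7 and 10.9 FPKM, against 2.15, 2.23 and 2.55 FPKM at day 0, a change of 2.42 ± 0.25 (adjusted p = 1.63e-06). For both genes the 3 day 4 libraries lay above the 3 day 0 libraries. Among the members that fell by day 6, Hist2h2bb had 1.11, 0 and 0.45 FPKM, against 6.38, 5.93 and 3.80 FPKM at day 0 (−1.82 ± 0.36), Hist1h2ai had 0.94, 0.53 and 0 FPKM, against 4.61, 7.06 and 4.39 FPKM (−1.83 ± 0.54), and Hist1h3c had 0.29, 0 and 0.48 FPKM, against 5.17, 4.64 and 7.17 FPKM (−2.12 ± 0.69). None of these groups overlapped. Divided by the annotated polyadenylation signal, 6 of 15 members with it were higher at day 6 and 1 lower, with a median change of 0.87. Of 45 members without it, 2 were higher and 16 lower, with a median change of −0.10. Of all genes tested, 19.2% were higher and 37.4% lower at day 6. The lower count of members without the signal lay near that share. Without 1 library the balance at day 2 turned, to 7 higher and 3 lower without WT day 0 replicate 2, 6 and 5 without WT day 2 replicate 2, and 11 and 9 without Tet1-KO day 6 replicate 2. The count of calls moved over 1.5 times without 1 library at day 2 (8 without WT day 0 replicate 3 or WT day 2 replicate 3, 20 without Tet1-KO day 6 replicate 2) and at day 6 (16 without WT day 6 replicate 2).

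In Tet1-KO cells fewer members passed. At day 2 against day 0, 0 of the 60 tested members were higher and 4 lower, where 7.72% of all genes tested were higher and 14.8% lower and the median change of all genes was −0.10. At day 4, 5 of the 60 tested members were higher and 4 lower, where 12% of all genes tested were higher and 34.7% lower and the median change of all genes was −0.29. At day 6, 3 of the 60 tested members were higher and 15 lower, where 9.55% of all genes tested were higher and 36% lower and the median change of all genes was −0.38. After median-ratio scaling the day 4 count was 8 higher and 1 lower. The members higher at day 4 were Hist1h4h, Hist2h2aa1, Hist1h2bc, Hist1h4a with 19.7, 29.8 and 19.8 FPKM, against 9.12, 11.6 and 10.9 FPKM at day 0 (1.34 ± 0.25, adjusted p = 0.00193), and Hist1h2al, which is annotated as a processed pseudogene. Hist1h2ah, an H2A gene, fell at day 6 to 1.71, 0 and 2.46 FPKM, against 6.78, 5.29 and 12 FPKM at day 0, a change of −1.64 ± 0.40 (adjusted p = 0.000787). Without Tet1-KO day 6 replicate 2 the counts were 0 higher and 11 lower for day 2, 7 higher and 14 lower for day 4, and 6 higher and 6 lower for day 6, so that more lower than higher members at day 6 were called only with that library. At day 4 the balance also turned without Tet1-KO day 0 replicate 2, to 4 higher and 6 lower, and without Tet1-KO day 4 replicate 2, to 3 higher and 5 lower. Divided by the annotated polyadenylation signal, the Tet1-KO count at day 6 was 2 higher and 6 lower of 15 members with the signal (median −0.51) and 1 higher and 9 lower of 45 without it (median −0.09). Without day 6 replicate 2 it was 2 higher and 4 lower of 15 and 4 higher and 2 lower of 44. The number of calls also moved over 1.5 times, to 1 at day 2 without Tet1-KO day 0 replicate 1 or Tet1-KO day 2 replicate 2, to 5 at day 4 without Tet1-KO day 4 replicate 1, and to 8 at day 6 without Tet1-KO day 0 replicate 1 and 11 without Tet1-KO day 0 replicate 3.

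Against WT cells at day 0, before the differentiation medium, the Tet1-KO cells were higher in several H4 genes. In all, 9 of the 60 tested members were higher and 1 lower, where 5.83% of all genes tested were higher and 11% lower and the median difference of all genes was −0.09. Of these, 6 of 13 H4, 2 of 14 H2B and 1 of 12 H3 members were higher, and none of the 4 H1 or 17 H2A members passed. Beside Hist1h4h and Hist1h2bc, Hist1h4a had 9.12, 11.6 and 10.9 FPKM in Tet1-KO cells, against 2.15, 2.23 and 2.55 FPKM in WT cells, a difference of 1.89 ± 0.25 (adjusted p = 5.41e-05). Hist1h4f had 4.88, 4.09 and 2.30 FPKM, against 0.72, 0.83 and 0 FPKM in WT cells, a difference of 1.75 ± 0.39 (adjusted p = 0.00699). The groups did not overlap for either gene. The Hist1h4f call missed the threshold without WT day 0 replicate 3 (adjusted p = 0.0567). The number of calls fell to 4 without WT day 0 replicate 1, 2 or 3 and to 3 without Tet1-KO day 0 replicate 1, and without Tet1-KO day 6 replicate 2 it was 18 higher and 2 lower.

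At day 2 the direction of the called members was mostly the reverse: 2 of the 60 tested members were higher and 7 lower, where 16.2% of all genes tested were higher and 6.76% lower and the median difference was 0.17. The 4 lower H2A and 3 lower H3 members included genes that WT cells had at their highest level on this day. Hist1h3c had 1.17, 0.30 and 3.29 FPKM in Tet1-KO cells, against 13.8, 14.3 and 10.1 FPKM in WT cells, a difference of −2.73 ± 0.69 (adjusted p = 0.0129). Hist1h3h had 1.86, 1.07 and 4.79 FPKM, against 11.7, 13.7 and 7.45 FPKM in WT cells (−2.01 ± 0.64, adjusted p = 0.0443), and Hist1h2ag had 0, 0 and 0.91 FPKM, against 6.90, 6.63 and 4.04 FPKM in WT cells (−2.60 ± 0.46, adjusted p = 0.0017). For these 3 genes every Tet1-KO library lay below every WT library. The Hist1h3c call missed the threshold with a pseudocount of 0.1 FPKM (adjusted p = 0.0522) and without Tet1-KO day 2 replicate 1 (adjusted p = 0.0593), and the Hist1h3h call with a pseudocount of 0.1 FPKM and with no filter (adjusted p = 0.0795 to 0.141) and in turn without WT day 2 replicates 1, 2 and 3 and Tet1-KO day 2 replicates 1 and 2 (adjusted p = 0.0564 to 0.15). Of 34 genes of S phase and mitosis, 0 were higher and 1 lower in Tet1-KO than in WT cells at day 2, against 0 and 2 at day 0. The Tet1-KO libraries of day 2 were far apart, with a summed level of these genes of 273 to 1052 FPKM, against 709.7 to 789.9 FPKM in WT cells. Their adipocyte markers summed to 8311 to 48654 FPKM, against 50481 to 65933 FPKM in WT cells. The number of calls was 5 without WT day 2 replicate 1 or Tet1-KO day 2 replicate 1, and 6 higher and 13 lower without Tet1-KO day 6 replicate 2.

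At day 4, 3 of the 60 tested members were higher and 0 lower, where 9.79% of all genes tested were higher and 6.22% lower and the median difference was 0.09. The 3 were Hist4h4, Hist1h1e and Hist1h4a, which had 19.7, 29.8 and 19.8 FPKM in Tet1-KO cells, against 11.5, 11.7 and 10.9 FPKM in WT cells (0.85 ± 0.25, adjusted p = 0.0152). The Hist1h4a call missed the threshold after median-ratio scaling (adjusted p = 0.0598) and without WT day 4 replicate 3 (adjusted p = 0.0534). Without WT day 4 replicate 1 or 2, or Tet1-KO day 4 replicate 1 or 3, 1 call was left, without WT day 4 replicate 3 there were 0, and without Tet1-KO day 6 replicate 2 there were 7. At day 6, 11 of the 60 tested members were higher and 5 lower, where 15.7% of all genes tested were higher and 29.7% lower and the median difference was −0.20. Hist2h2bb had 1.69, 5.07 and 2.57 FPKM in Tet1-KO cells, against 1.11, 0 and 0.45 FPKM in WT cells, a difference of 1.61 ± 0.36 (adjusted p = 0.004). Hist1h2ag had 3.23, 2.75 and 10.4 FPKM, against 1.84, 0.39 and 0.34 FPKM in WT cells (1.89 ± 0.46, adjusted p = 0.00612). Hist1h2bq, whose values equal those of Hist1h2br in 59 of 60 libraries, had 10.3, 1.64 and 6.45 FPKM, against 18.7, 21.4 and 26.8 FPKM in WT cells (−1.73 ± 0.38, adjusted p = 0.000551). Tet1-KO libraries lay above WT for the first 2 of these genes and below WT for the third. Without Tet1-KO day 6 replicate 2 the day 6 count was 16 higher and 4 lower. Without its replicate 1 it was 7 higher and 15 lower, which turns the balance. Without replicate 3 it was 12 higher and 9 lower.

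Whether the difference between Tet1-KO and WT cells changed from day 0 to day 6 was tested by itself. In that test 3 of the 60 tested members were higher and 4 lower, where 7.16% of all genes tested were higher and 10.6% lower and the median was −0.09, and after median-ratio scaling the counts were 2 and 5. Hist2h2bb, an H2B gene of the chromosome 3 cluster, went from lower to higher relative to WT, with a change of 2.26 ± 0.51 (adjusted p = 0.00682). Hist1h2bq went the other way, at −2.65 ± 0.54 (adjusted p = 0.00181). Divided by the signal, 0 higher and 3 lower of 15 members with it were called (median −1.17) and 3 higher and 1 lower of 45 without it (median 0.22). Hist1h2bq and Hist1h2br, with equal values in 59 of 60 libraries, were both among the 3 lower members with the signal. Without Tet1-KO day 6 replicate 2 the counts were 0 higher and 4 lower of 15 with the signal and 6 higher and 2 lower of 44 without it. The calls of Hist2h2bb and Hist1h2bq passed in the 4 alternatives and with each library of these groups left out. The number of calls was 4 without WT day 0 replicate 1 or 2 or WT day 6 replicate 3, and 17 without Tet1-KO day 6 replicate 1, 12 without its replicate 2 and 11 without its replicate 3.

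In the second table, where the spread between replicates was smaller, more members passed. In 23-Tet1 cells at day 2 against day 0, 16 of the 61 tested members were higher and 23 lower, where 28.8% of all genes tested were higher and 35.6% lower and the median change of all genes was −0.04. At day 4, 27 of the 61 tested members were higher and 16 lower, where 31% of all genes tested were higher and 40.6% lower and the median change of all genes was −0.08. At day 6, 28 of the 61 tested members were higher and 12 lower, where 32.8% of all genes tested were higher and 44.7% lower and the median change of all genes was −0.12. At day 2, 8 of 12 H3 and 9 of 17 H2A members were lower, and by day 6, 10 of 13 H4 and 4 of 4 H1 members were higher. Divided by annotation, the day 2 count was 10 higher and 1 lower of 15 members with a polyadenylation signal (median 0.57) and 6 higher and 22 lower of 46 without it (median −0.54). At day 6 it was 12 higher and 0 lower of 15 with the signal (median 1.65) and 16 higher and 12 lower of 46 without it (median 0.41). These are counts over members that share clusters and sequence, given without a test.

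Hist1h3c had 0, 1.10 and 0 FPKM at day 2 in 23-Tet1 cells, against 22.98, 26.1 and 31.9 FPKM at day 0, a change of −4.39 ± 0.36 (adjusted p = 5.58e-12). Hist1h3h had 1.34, 1.41 and 0.46 FPKM at day 2, against 20.1, 29.5 and 24.1 FPKM at day 0 (−3.60 ± 0.25, adjusted p = 1.33e-13). Hist1h2ag had 0.82, 1.83 and 0 FPKM at day 2, against 14.9, 11.3 and 12.3 FPKM at day 0 (−2.95 ± 0.37, adjusted p = 3.3e-08). None of these groups overlapped. Over the same 2 days Hist2h2aa1, Hist1h2bg and Hist2h3c1 each rose in 23-Tet1 cells, by 2.14 ± 0.12, 1.94 ± 0.24 and 1.90 ± 0.22.

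In 23-CATA cells most called members were higher. At day 2 against day 0, 27 of the 61 tested members were higher and 2 lower, where 27% of all genes tested were higher and 45.2% lower and the median change of all genes was −0.16. At day 4, 31 of the 61 tested members were higher and 2 lower, where 25.8% of all genes tested were higher and 55.6% lower and the median change of all genes was −0.34. At day 6, 31 of the 61 tested members were higher and 3 lower, where 27.3% of all genes tested were higher and 49.7% lower and the median change of all genes was −0.22. Hist1h1d, a linker histone gene, had 6.44, 6.54 and 5.28 FPKM at day 2, against 0.83, 0.62 and 1.40 FPKM at day 0 (2.03 ± 0.23, adjusted p = 1.9e-08), without overlap. Hist3h2a was lower at each of the 3 days in this population. Its day 6 call, at −0.18 ± 0.10, missed the threshold after median-ratio scaling (adjusted p = 0.16). At day 6 the count was 12 higher and 1 lower of 15 members with the polyadenylation signal (median 1.37) and 19 higher and 2 lower of 46 without it (median 0.75).

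In 23-NC cells the main change came at day 4. At day 2 against day 0, 5 of the 61 tested members were higher and 4 lower, where 24.4% of all genes tested were higher and 35.1% lower and the median change of all genes was −0.07, and after median-ratio scaling 7 were higher and 2 lower. At day 4, 42 of the 61 tested members were higher and 1 lower, where 30.2% of all genes tested were higher and 42.1% lower and the median change of all genes was −0.09. At day 6, 24 of the 61 tested members were higher and 7 lower, where 31.7% of all genes tested were higher and 40.5% lower and the median change of all genes was −0.07. The higher members at day 4 comprised 4 of 4 H1, 10 of 17 H2A, 10 of 15 H2B, 7 of 12 H3 and 11 of 13 H4 members. The H4 gene Hist1h4k had 61.6, 48.7 and 40.7 FPKM at day 4, against 2.96, 6.11 and 6.26 FPKM at day 0 (3.20 ± 0.27, adjusted p = 1.47e-11). Hist1h1d had 21.8, 25.7 and 19.6 FPKM at day 4, against 3.18, 0.85 and 2.59 FPKM at day 0 (3.04 ± 0.23, adjusted p = 1.32e-12). Neither gene's groups overlapped. The lower member was Hist3h2a, whose call at −0.24 ± 0.10 missed the threshold after median-ratio scaling (adjusted p = 0.0763). At day 6, the count was 11 higher and 2 lower of 15 members with the polyadenylation signal (median 1.21) and 13 higher and 5 lower of 46 without it (median 0.37).

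**Figure D3:**
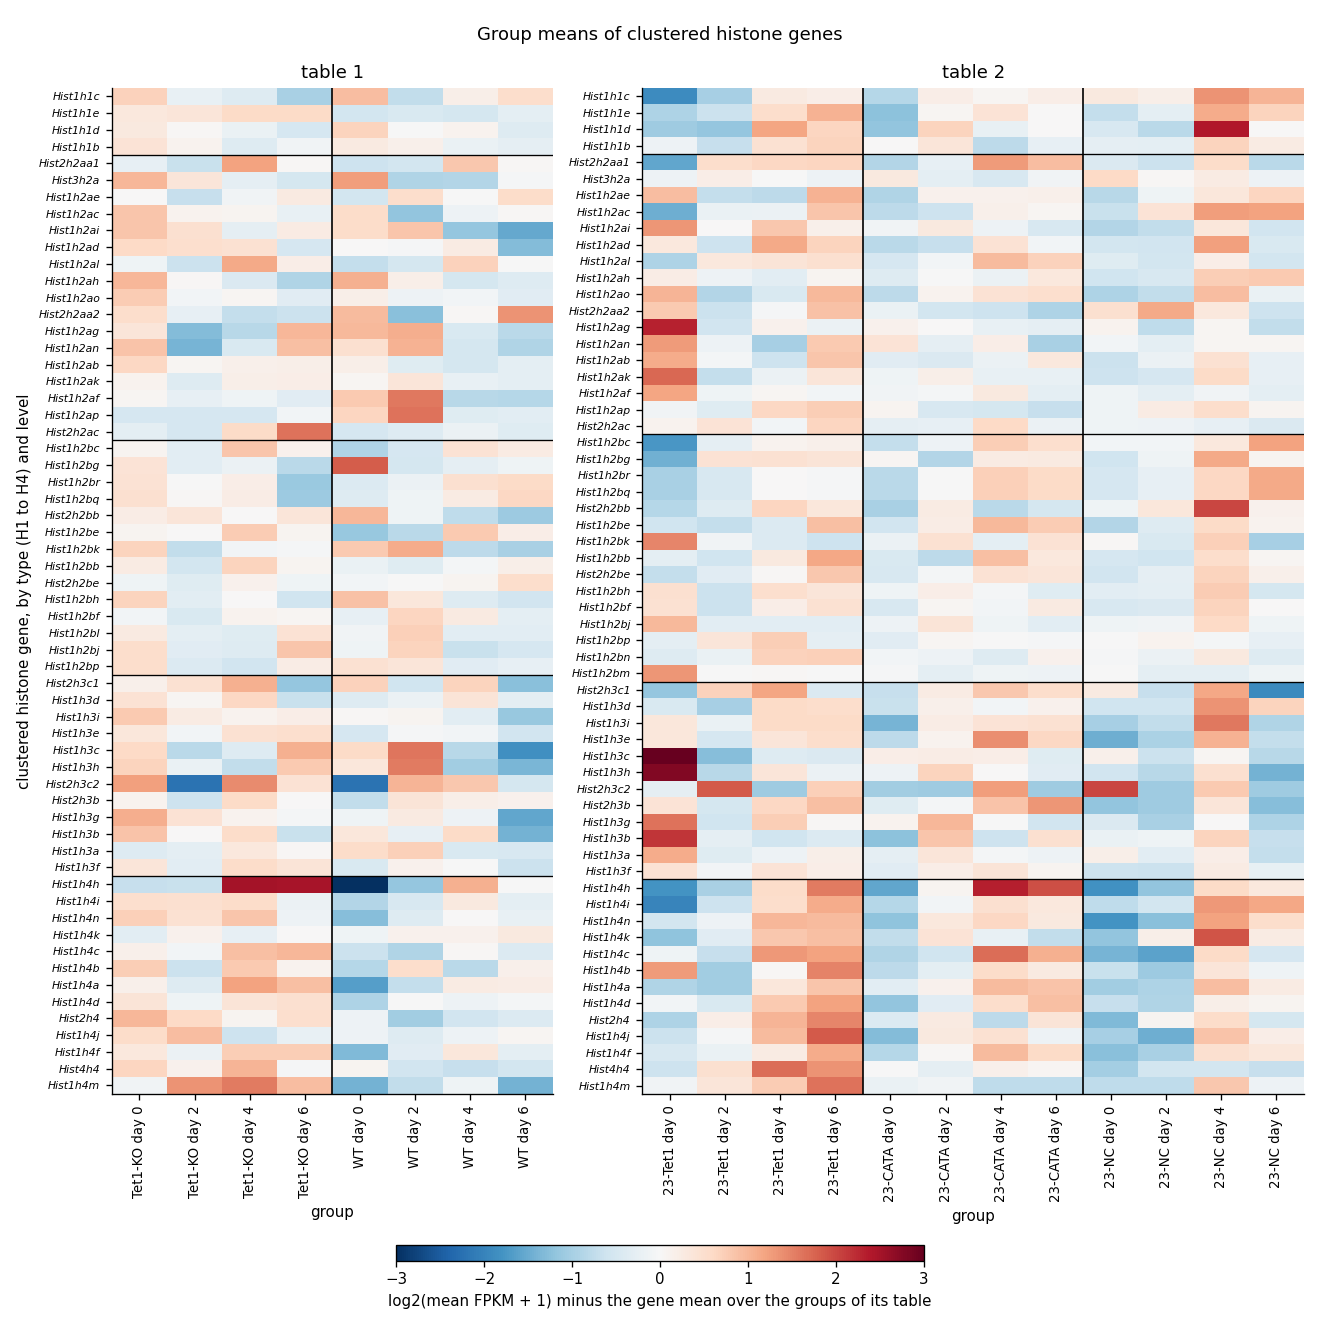
Log2 of mean FPKM + 1 of each member that passed the filter, less the mean of these values over the groups of its table, by group and ordered by histone type, with colour limited to 3 units either way. In the second table, a block of H3 and H2A members is high at day 0 in 23-Tet1 cells, where 16 of 61 members had their highest group mean, and many members are high at day 4 in 23-NC cells, where 14 of 61 did.

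At day 0, 27 of the 61 tested members were higher in 23-Tet1 than in 23-NC cells and 11 lower, where 37.8% of all genes tested were higher and 23.5% lower and the median difference of all genes was 0.10. The directions differed between members with and without the annotated signal, in counts given without a test. Of the 46 members tested that lack an annotated polyadenylation signal, 26 were higher and 7 lower, with a median of 0.88. Of the 15 with the signal, 1 was higher, Hist1h2ae, and 4 were lower, with a median of −0.24. The members lower in 23-Tet1 cells included the abundant genes Hist1h1c, Hist1h2bc, Hist2h2aa1, Hist2h3c1, Hist1h4i, Hist1h2bg and Hist3h2a, described above, and the sum over all members was lower in 23-Tet1 cells although most called members were higher.

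Hist1h3h had 20.1, 29.5 and 24.1 FPKM at day 0 in 23-Tet1 cells, against 1.68, 0.77 and 1.96 FPKM in 23-NC cells, a difference of 3.29 ± 0.25 (adjusted p = 1.44e-12). Hist1h3c had 22.98, 26.1 and 31.9 FPKM, against 4.56, 1.92 and 1.71 FPKM in 23-NC cells (2.88 ± 0.36, adjusted p = 3.16e-08). Hist1h2ai had 17.2, 14.9 and 19.8 FPKM, against 4.07, 2.06 and 2.84 FPKM in 23-NC cells (2.12 ± 0.35, adjusted p = 2.71e-06). For these genes, and for Hist1h2ag with 14.9, 11.3 and 12.3 FPKM in 23-Tet1 and 2.47, 1.93 and 1.62 FPKM in 23-NC cells, the 3 libraries of 23-Tet1 lay above the 3 of 23-NC. In 23-CATA cells at day 0 Hist1h3h had 2.28, 3.05 and 1.73 FPKM and Hist1h3c 3.08, 2.70 and 2.75 FPKM, and neither difference from 23-NC cells passed the test, at 0.35 ± 0.25 (adjusted p = 0.147) and 0.01 ± 0.36 (adjusted p = 0.818).

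Proliferation genes were also higher in 23-Tet1 than in 23-NC cells at day 0. Of 34 genes of S phase and mitosis tested, 34 were higher and 0 lower in 23-Tet1 than in 23-NC cells at day 0, and their summed level was 1506 ± 29.9 FPKM in 23-Tet1, 724 ± 11.8 FPKM in 23-CATA and 709 ± 32.2 FPKM in 23-NC cells (mean ± SD). Mki67, a marker of cycling cells, had 53.9, 52.4 and 50.5 FPKM in 23-Tet1 cells, against 13.7, 22.6 and 22.7 FPKM in 23-NC cells, a difference of 1.31 ± 0.13 (adjusted p = 1.13e-10). Mcm5, a subunit of the replicative helicase, differed by 1.83 ± 0.09 (adjusted p = 2.27e-17). Of 17 histone chaperones and deposition factors, 14 were higher and 1 lower, among them Asf1b and the CAF-1 subunit Chaf1a, at 1.20 ± 0.10 and 1.20 ± 0.09. Slbp had 40.6, 36.5 and 40.2 FPKM in 23-Tet1 and 32.6, 27.8 and 29.6 FPKM in 23-NC cells, without overlap (0.28 ± 0.07, adjusted p = 2.96e-05). At day 2, Hist1h3c, Hist1h3h, Mki67 and Slbp were all lower than at day 0 in 23-Tet1 cells, without overlap between the days. The course was another one in WT cells. There the summed level of S phase and mitosis genes was 1247 ± 48.2 FPKM at day 0 and 745 ± 41.1 FPKM at day 2. Hist1h3c, Hist1h3h and Hist1h2ag had their highest group mean of the first table in WT cells at day 2. The part of proliferation in the histone differences was not tested.

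**Figure D4:**
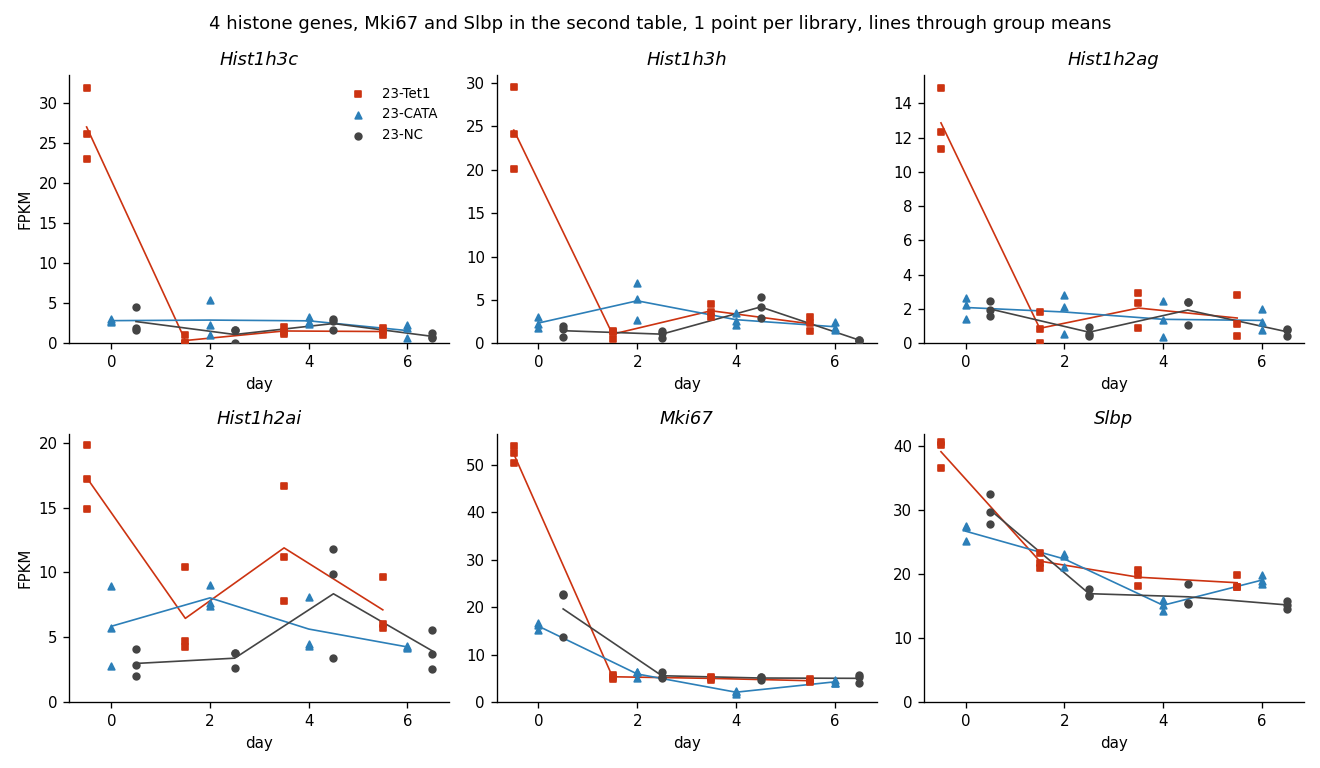
FPKM of Hist1h3c, Hist1h3h, Hist1h2ag, Hist1h2ai, Mki67 and Slbp in each library of the second table by day. At day 0 the 3 libraries of 23-Tet1 cells (Hist1h3c 23.0 to 31.9 FPKM) lie above those of 23-CATA (2.70 to 3.08 FPKM) and 23-NC cells (1.71 to 4.56 FPKM).

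**Figure D5:**
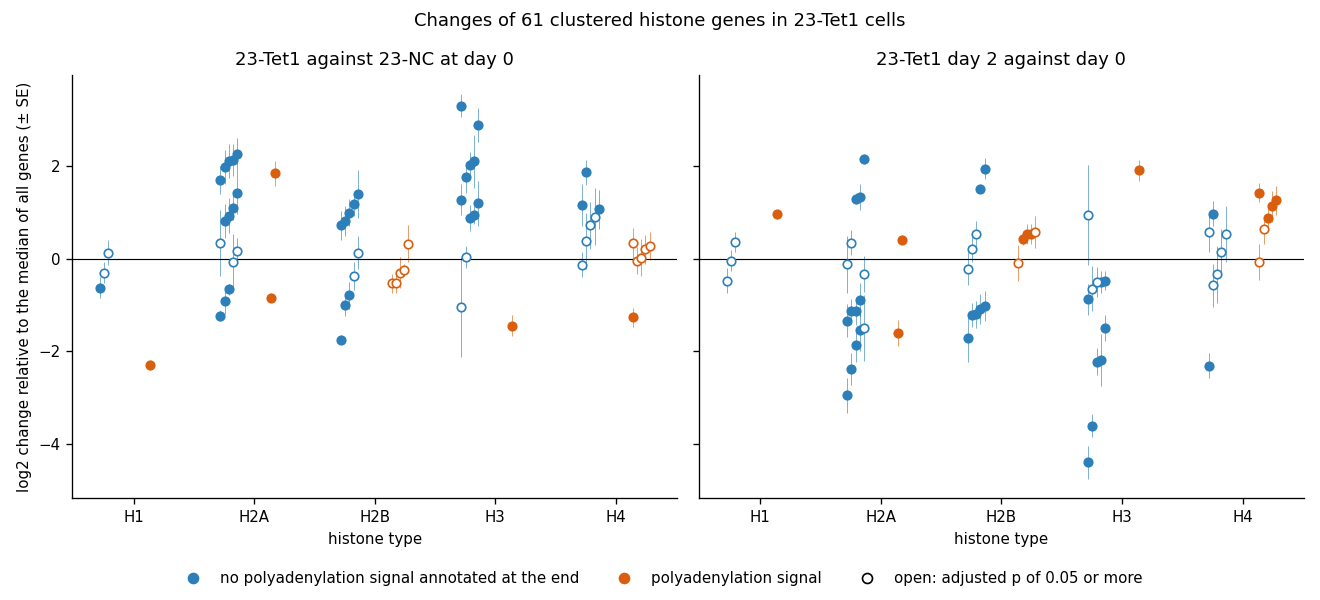
Log2 difference ± SE of the 61 members tested, for 23-Tet1 against 23-NC cells at day 0 and for day 2 against day 0 in 23-Tet1 cells. Members are divided by histone type and by a letter match to a polyadenylation signal at the end of an annotated transcript, with filled points for members called. Of the 46 members without the signal, 26 were higher in the first comparison and 22 lower in the second.

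At the later days the counts were others. At day 2, 8 of the 61 tested members were higher and 3 lower, where 38.7% of all genes tested were higher and 25.2% lower and the median difference was 0.09, and after median-ratio scaling 7 were higher and 7 lower. At day 4, 2 of the 61 tested members were higher and 21 lower, where 35% of all genes tested were higher and 21.9% lower and the median difference was 0.08. Hist1h1d had 7.64, 9.90 and 9.81 FPKM in 23-Tet1 cells, against 21.8, 25.7 and 19.6 FPKM in 23-NC cells (−1.29 ± 0.23, adjusted p = 4.47e-05), and Hist2h2bb had 10.8, 13.2 and 12.8 FPKM, against 34.3, 39.6 and 25.4 FPKM in 23-NC cells (−1.43 ± 0.29, adjusted p = 0.000205). Neither gene's groups overlapped. Hist4h4, the only member on chromosome 6, was higher, with 7.36, 3.22 and 9.95 FPKM in 23-Tet1 and 0, 1.16 and 0.88 FPKM in 23-NC cells (2.11 ± 0.34, adjusted p = 2.95e-06). At day 6, 26 of the 61 tested members were higher and 4 lower, where 36% of all genes tested were higher and 29% lower and the median difference was 0.05. Here 7 of 13 H4 members were higher, Hist2h4 among them with 19.8, 19.7 and 15.1 FPKM in 23-Tet1 cells, against 3.58, 4.55 and 3.44 FPKM in 23-NC cells (1.93 ± 0.30, adjusted p = 1.69e-06).

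The test of how the difference from 23-NC cells changed between days 0 and 6 called 16 members higher and 14 lower of 61 tested, where 29.1% of all genes tested were higher and 32.3% lower and the median was −0.04. Hist2h3c1 and Hist2h2aa1, which lie next to each other on chromosome 3, had the largest positive changes, at 2.86 ± 0.32 and 2.64 ± 0.17. Hist1h3c and Hist1h3h had the largest negative changes, at −2.54 ± 0.51 and −2.14 ± 0.36. With the signal, 9 higher and 3 lower of 15 members were called, and without it 7 higher and 11 lower of 46.

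In 23-CATA cells at day 0, 3 of the 61 tested members were higher and 7 lower relative to 23-NC cells, where 31.6% of all genes tested were higher and 11.7% lower and the median difference was 0.11. Hist1h1c, Hist1h2bc, Hist2h2aa1, Hist2h3c1 and Hist3h2a, lower in 23-Tet1 cells too, were among the lower ones. Both comparisons use the same 23-NC libraries. At day 0 the adipocyte markers summed to 2536 ± 89.8 FPKM in 23-CATA and 62.4 ± 3.32 FPKM in 23-NC cells. The cyclin-dependent kinase inhibitors summed to 359.5 ± 9.36 FPKM in 23-CATA and 158 ± 15.99 FPKM in 23-NC cells. Cd68 averaged 32.3 FPKM in 23-CATA and 5.12 FPKM in 23-NC cells. Their part in the histone differences was not tested. Without 23-NC day 0 replicate 2 or 3 the number of calls was 6. At day 2, 21 of the 61 tested members were higher and 4 lower, where 34.3% of all genes tested were higher and 30.7% lower and the median difference was 0.03. The higher ones comprised 9 of 12 H3 and 6 of 13 H4 members. Hist1h3g had 2.43, 1.71 and 5.58 FPKM in 23-CATA cells, against 0, 0 and 0.26 FPKM in 23-NC cells (1.84 ± 0.29, adjusted p = 1.59e-06), and Hist1h3h had 6.97, 2.65 and 5.12 FPKM, against 0.58, 1.23 and 1.41 FPKM in 23-NC cells (1.44 ± 0.25, adjusted p = 9.2e-06). Neither gene's groups overlapped. Of the 34 genes of S phase and mitosis, 19 were higher and 4 lower at that day, cyclin E1 (Ccne1) by 1.03 ± 0.12 (adjusted p = 3.8e-09) among them. Their part in the histone differences was not tested.

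At day 4, 7 of the 61 tested members were higher and 16 lower in 23-CATA than in 23-NC cells, where 28.9% of all genes tested were higher and 39.9% lower and the median difference was −0.08. Hist2h2bb had 3.22, 6.28 and 1.95 FPKM in 23-CATA cells, against 34.3, 39.6 and 25.4 FPKM in 23-NC cells (−2.82 ± 0.29, adjusted p = 4.38e-10). Hist1h1d had 3.07, 3.13 and 2.34 FPKM, against 21.8, 25.7 and 19.6 FPKM in 23-NC cells (−2.52 ± 0.23, adjusted p = 3.57e-11), and Hist1h4k had 11.3, 10.9 and 10.7 FPKM, against 61.6, 48.7 and 40.7 FPKM in 23-NC cells (−2.0 ± 0.27, adjusted p = 7.25e-08). For these genes the 23-CATA libraries all lay below the 23-NC libraries, in which day 4 was the peak. At day 6, 11 of the 61 tested members were higher and 10 lower, where 38% of all genes tested were higher and 36.4% lower and the median difference was 0.02. Hist2h3b had 5.64, 7.80 and 10.1 FPKM in 23-CATA cells, against 0.69, 0.63 and 0 FPKM in 23-NC cells (2.61 ± 0.49, adjusted p = 1.92e-05), beside Hist2h3c1 and Hist2h2aa1 of the same cluster. The change of the difference between days 0 and 6 was called higher for 10 and lower for 5 of 61 members, where 27.5% of all genes tested were higher and 36% lower and the median was −0.09, and after median-ratio scaling for 11 and 3.

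Genes whose products process and store histone mRNA were followed as well. Slbp, which binds the stem-loop, had 48.5, 51.2 and 37.7 on day 0, 27.3, 21.6 and 36.2 on day 2, 13.2, 15.8 and 16.1 on day 4, and 24.2, 29.2 and 27.5 on day 6 (FPKM) in Tet1-KO cells. In WT cells it had 70.1, 62.7 and 59.1 on day 0, 25.5, 24.4 and 28.8 on day 2, 18.4, 14.97 and 16.2 on day 4, and 21.2, 14.8 and 14.2 on day 6. It was lower than at day 0 in every later library of both populations, by 1.24 ± 0.18 (adjusted p = 4.42e-06) in Tet1-KO and 1.38 ± 0.18 (adjusted p = 5.26e-08) in WT cells at day 4. In 23-Tet1 cells Slbp had 40.6, 36.5 and 40.2 on day 0, 23.4, 20.98 and 21.8 on day 2, 18.2, 20.6 and 19.8 on day 4, and 18.1, 18.1 and 19.8 on day 6. In 23-CATA cells it had 27.5, 25.2 and 27.4 on day 0, 23.2, 21.1 and 22.8 on day 2, 14.2, 15.96 and 15.2 on day 4, and 18.5, 18.9 and 19.8 on day 6. In 23-NC cells it had 32.6, 27.8 and 29.6 on day 0, 16.7, 16.5 and 17.6 on day 2, 15.5, 15.4 and 18.4 on day 4, and 15.2, 14.6 and 15.8 on day 6. The later libraries again lay below day 0 throughout, and the change at day 4 was −0.89 ± 0.07 (adjusted p = 1.97e-13) in 23-Tet1, −0.44 ± 0.07 (adjusted p = 1.8e-11) in 23-CATA and −0.73 ± 0.07 (adjusted p = 6.5e-12) in 23-NC cells.

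Of 19 tested genes of histone mRNA processing and supply, Slbp included, day 4 against day 0 gave 1 higher and 7 lower in Tet1-KO, 1 higher and 11 lower in WT, 4 higher and 10 lower in 23-Tet1, 2 higher and 9 lower in 23-CATA and 3 higher and 7 lower in 23-NC cells. Of all genes tested on that day, 34.7% were lower in Tet1-KO, 49.2% in WT, 40.6% in 23-Tet1, 55.6% in 23-CATA and 42.1% in 23-NC cells. Lsm1, of the cytoplasmic decay complex, rose in WT cells by 2.68 ± 0.32 (adjusted p = 6.97e-06) and the cap-binding subunit Ncbp1 rose in 23-NC cells by 1.06 ± 0.06 (adjusted p = 1.09e-15). Of 34 genes of S phase and mitosis, day 4 gave 0 higher and 29 lower in Tet1-KO, 0 higher and 31 lower in WT, 0 higher and 33 lower in 23-Tet1, 1 higher and 30 lower in 23-CATA and 1 higher and 30 lower in 23-NC cells. Mki67 changed at day 4 by −2.44 ± 0.44 (adjusted p = 6.24e-05) in Tet1-KO, −2.66 ± 0.44 (adjusted p = 3.28e-06) in WT, −3.07 ± 0.13 (adjusted p = 2.26e-19) in 23-Tet1, −2.11 ± 0.13 (adjusted p = 7.34e-17) in 23-CATA and −1.63 ± 0.13 (adjusted p = 4.53e-13) in 23-NC cells. On the same day the summed histone level exceeded that of day 0 in all 5 populations, without overlap between the libraries.

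Of 17 histone chaperones and deposition factors, day 4 gave 0 higher and 12 lower in Tet1-KO, 0 higher and 13 lower in WT, 2 higher and 13 lower in 23-Tet1, 1 higher and 15 lower in 23-CATA and 2 higher and 9 lower in 23-NC cells. Chaf1b, a CAF-1 subunit that deposits H3 and H4 on replicated DNA, fell in 23-Tet1 cells by 2.14 ± 0.10 (adjusted p = 6.84e-18) and in 23-NC cells by 1.58 ± 0.10 (adjusted p = 6.56e-15). The replication-independent variant genes gave 0 higher and 9 lower in Tet1-KO, 1 higher and 10 lower in WT, 4 higher and 7 lower in 23-Tet1, 1 higher and 10 lower in 23-CATA and 3 higher and 7 lower in 23-NC cells, of 11 tested. The H2A variant gene H2afj rose in WT cells by 1.83 ± 0.32 (adjusted p = 0.00109), and Cenpa, the centromeric H3 variant, fell by 1.94 ± 0.54 (adjusted p = 0.000505). Of 4 cyclin-dependent kinase inhibitors tested, 0 higher and 2 lower were called in Tet1-KO, 1 higher and 2 lower in WT, 1 higher and 2 lower in 23-Tet1, 1 higher and 2 lower in 23-CATA and 2 higher and 2 lower in 23-NC cells. Their summed level at day 4 was 551 ± 76.7 FPKM in Tet1-KO and 452 ± 4.62 FPKM in WT cells, against 475 ± 5.76 and 329 ± 5.68 FPKM at day 0. Cdkn2c rose in WT cells by 2.43 ± 0.73 (adjusted p = 0.0262), a call that missed the threshold with a pseudocount of 0.1 FPKM (adjusted p = 0.0533) and in turn without WT day 0 replicates 1, 2 and 3 and WT day 4 replicates 1 and 2 (adjusted p = 0.0515 to 0.0622). Cdkn1b fell in Tet1-KO cells by 1.62 ± 0.26 (adjusted p = 1.2e-05) and in WT cells by 1.97 ± 0.26 (adjusted p = 1e-07). Cdkn2a and Cdkn2b are listed at 0 throughout.

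At day 6, Tet1-KO against WT cells gave 7 higher and 2 lower of 34 genes of S phase and mitosis, 8 higher and 1 lower of 17 chaperones and 6 higher and 0 lower of 11 variants, where 15.7% of all genes tested were higher and 29.7% lower. Mki67 had 4.03, 5.17 and 10.9 FPKM in Tet1-KO cells, against 1.94, 1.20 and 1.43 FPKM in WT cells (1.71 ± 0.44, adjusted p = 0.00854), and Slbp had 24.2, 29.2 and 27.5 FPKM, against 21.2, 14.8 and 14.2 FPKM (0.87 ± 0.18, adjusted p = 0.00611). Both genes were higher in all 3 Tet1-KO libraries. The list counts above include Tet1-KO day 6 replicate 2 and are not given without it. At this day 5 of 12 H3 members were also higher in Tet1-KO cells. The summed adipocyte markers were 31467 ± 2486 FPKM in Tet1-KO and 65009 ± 2257 FPKM in WT cells (mean ± SD), and the part of either in the histone differences was not tested.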

How the data were processed

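Polyadenylated RNA of 60 samples was sequenced by the submitters. The deposited values are FPKM per gene, which the authors gave to 2 decimals in 2 tables. Reads were aligned with STAR 2.4.1a to mm10 and expression estimated with RSEM, per the submitters' processing notes. How reads were assigned by strand is not given in the sources used here. Groups were taken from sample titles, since the genotype tag of 11 23-Tet1 samples differs from the title.

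A pseudocount of 1 FPKM was added, log2 was taken, and limma 3.58.1 (R 4.3.3; lmFit, then eBayes with a trend) was fitted to all groups of a table together. Genes entered where 3 or more libraries reached 1 FPKM (11911 in the first table, 12231 in the second). A call is a p under 0.05 after Benjamini-Hochberg adjustment over a table's tested genes, in each of 30 comparisons: 15 of a later day against day 0, 12 between populations by day and 3 of the difference between populations at day 6 less that at day 0. Printed changes are less the median change of all genes, while calls rest on the fitted change. The log2(FPKM + 1) scale understates the change of low genes. The fit was tested on simulated data.

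The members, the gene lists, the tests and the alternatives were chosen with earlier results of these data known. Members named with values are the 2 most abundant of each type, in every library, and up to 6 called each way in a comparison, of which the text gives some. List genes named are among the 2 most changed each way, with Slbp and Mki67 always given. Replicate numbers were checked as pairs: same-numbered libraries had residual correlations of −0.47 to 0.42, and all 3 exceeded 0.1 in 1 of 27 comparisons, so libraries were not treated as paired. Each library left out, a replicate block, median-ratio scaling, no filter and a pseudocount of 0.1 FPKM were tried as alternatives.

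Depth was read from the spacing of low FPKM values of genes with 1 transcript, with the effective length fitted, and covers counting error only. Sequences came from GENCODE M21 and RefSeq GRCm38.p6. Tables, motif searches and figures used matplotlib 3.10.9, pandas 2.3.3, numpy 2.4.6 and scipy 1.17.1 under Python 3.11.15.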

Additional observations from a re-analysis of the deposited data

Results flagged for a closer look

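Histone genes are listed here where the course differed between populations, with values less the median over the genes tested (limma, adjusted p under 0.05). Between Tet1-KO and WT cells, the change from day 0 to day 6 differed by the interaction test for 7 named members. The difference of log2 changes, Tet1-KO less WT, was 2.51 for Hist1h2ag, 2.26 for Hist2h2bb, 1.47 for Hist1h3a. It was −2.65 for Hist1h2bq, −2.65 for Hist1h2br, −1.17 for Hist1h2bc, −1.08 for Hist1h4a. Hist1h2bq and Hist1h2br had equal values in 59 of 60 libraries and are not separate measurements.

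Between 23-Tet1 and 23-NC cells, the change from day 0 to day 6 differed by the interaction test for 12 named members. The difference of log2 changes, 23-Tet1 less 23-NC, was 2.86 for Hist2h3c1, 2.64 for Hist2h2aa1, 1.70 for Hist4h4, 1.65 for Hist2h4, 1.63 for Hist1h2al, 1.42 for Hist1h4j. It was −2.54 for Hist1h3c, −2.14 for Hist1h3h, −2.04 for Hist1h3b, −1.86 for Hist1h2ak, −1.72 for Hist1h2ag, −1.69 for Hist1h2ah.

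Between 23-CATA and 23-NC cells, the change from day 0 to day 6 differed by the interaction test for 11 named members. The difference of log2 changes, 23-CATA less 23-NC, was 3.41 for Hist2h3c1, 2.28 for Hist2h2aa1, 2.11 for Hist1h3b, 1.99 for Hist2h3b, 1.95 for Hist1h3i, 1.47 for Hist1h4h. It was −1.59 for Hist1h2an, −1.43 for Hist1h4k, −1.06 for Hist1h2ac, −0.79 for Hist1h1b, −0.66 for Hist1h4i.

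Hist2h3c1 and Hist2h2aa1, neighbours on chromosome 3, had the highest positive values in both comparisons of the second table, which share the 23-NC libraries. No group held 4 or more libraries, so no single library was tested as standing apart within its group.

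As fitted, the difference moved by more than 1.5 times without 1 library for 4 of these genes. For Hist1h2bc it was −0.80 without Tet1-KO day 6 replicate 2, against −1.26 with it (adjusted p = 0.0385 without it). For Hist1h2ah it was −1.14 without 23-NC day 0 replicate 2, against −1.73 with it (adjusted p = 0.0414 without it). For Hist1h2ac it was −0.73 without 23-CATA day 6 replicate 2, against −1.15 with it (adjusted p = 0.0805 without it). For Hist1h1b it was −0.53 without 23-NC day 0 replicate 1, against −0.89 with it (adjusted p = 0.205 without it).

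In at least 1 alternative or with 1 library left out, some of these calls missed the threshold (adjusted p = 0.0502 to 0.205). In Tet1-KO against WT cells these were Hist1h2ag, Hist1h3a, Hist1h2bc and Hist1h4a. In 23-Tet1 against 23-NC cells these were Hist4h4, Hist1h3b and Hist1h2ag. In 23-CATA against 23-NC cells these were Hist1h3b, Hist2h3b, Hist1h2an, Hist1h2ac, Hist1h1b and Hist1h4i.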

How the results depend on the processing

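Of the 30 counts of histone members called, 4 moved by more than 1.5 times with a pseudocount of 0.1 FPKM in place of 1: 8 calls in place of 13 for WT day 2 against day 0, 2 calls in place of 4 for Tet1-KO day 2 against day 0, 5 calls in place of 9 for Tet1-KO day 4 against day 0 and 5 calls in place of 9 for Tet1-KO against WT at day 2. None of the 30 moved that far with no filter, after median-ratio scaling or with the replicate number as a block, so the pairing changed no count by over 1.5 times. With the block there were, for example, 26 calls in place of 23 for 23-Tet1 against 23-NC at day 4. With each library of the compared groups left out in turn, and in the first table also Tet1-KO day 6 replicate 2, the number of calls ranged as follows: 8 to 20 for WT day 2 against day 0, 16 to 33 for WT day 6 against day 0, 1 to 11 for Tet1-KO day 2 against day 0, 5 to 21 for Tet1-KO day 4 against day 0, 8 to 27 for Tet1-KO day 6 against day 0, 3 to 20 for Tet1-KO against WT at day 0, 5 to 19 for Tet1-KO against WT at day 2, 0 to 7 for Tet1-KO against WT at day 4, 4 to 17 for Tet1-KO against WT, day 6 minus day 0, 6 to 9 for 23-CATA against 23-NC at day 0. The other 20 counts stayed within 1.5 times. Of 858 calls of single genes, 59 did not pass with the pseudocount of 0.1 FPKM, 54 with no filter, 56 after median-ratio scaling, 17 with the replicate block and 568 of 5808 fits with 1 library left out. The sign turned for 1, Cdkn2d, a cyclin-dependent kinase inhibitor gene, in 23-CATA cells at day 4 against day 0, at 0.0388 as fitted after median-ratio scaling (adjusted p = 0.814), against −0.31 before. Of 120 summed levels, by type and over all members in each group, 46 moved by more than 1 SD after median-ratio scaling. The causes were not tested. Values near the filter rest on few fragments, and exact zeros can be failed estimates, so differences among members under about 1 FPKM were not detectable at this depth.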
